A study of Mus musculus and Homo sapiens with 27 samples.

Results

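B cells from the spleen of adult Balb-c mice that lack Irf4 on both alleles (Irf4 -/-, KO) were compared after 48 h in culture with lipopolysaccharide (LPS) and in the untreated state (0 h). The comparison rests on 6 of the 27 arrays of the series, 3 for KO cells at 48 h and 3 for KO cells at 0 h, which were chosen by their titles. Beside them, the series holds KO cells at 24 and 96 h (3 arrays each), cells with 1 intact allele (Irf4 -/+, Het) at 0, 24, 48 and 96 h (3, 2, 2 and 4 arrays), and 4 arrays of a human lymphoma line that are not used here. Cells were grown in RPMI with fetal bovine serum, and the labels write the LPS dose as 20 to 25 mg/ml. The design text calls the repeats biological, but no label ties an array to an animal. The p-values are therefore not known to measure a spread between animals. They rest on a spread between arrays within groups, estimated over all 23 mouse arrays and not over these 6 alone.

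The arrays were mouse lymphochips, spotted cDNA arrays of lymphocyte genes. RNA of the B cells carried the dye Cy5 and was set against a pool of RNA from B-cell, T-cell and monocyte lines, labelled with Cy3. Values are log2 ratios to this pool, so that a level of 0 is the level of the pool and a difference of 1 is a doubling. The direction, cells over pool, was taken from the dyes and is not stated in the sources used here; with the opposite direction every sign below would turn. Of the features 559 carried 1 gene symbol, which gave 331 genes. Because whole cultures were measured, fewer cells of a type and less RNA per cell cannot be told apart.

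IRF4 is a transcription factor of the interferon regulatory factor family that B cells need for class switching and for their conversion to antibody-secreting plasma cells. LPS acts on B cells through Toll-like receptor 4 and takes them out of rest: they enlarge, raise glycolysis and the synthesis of nucleotides and ribosomes, replicate their DNA, and in part become plasmablasts. In resting B cells, a set of quiescence factors opposes growth and division.

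No named feature measured Irf4, so the genotype has no check of its own on these arrays. On 2 of the 3 arrays titled KO at 48 h (replicates 1 and 3), the channel fields of the labels give the genotype as Het; the titles were followed, and results are also given without both arrays. Jchain, which links the units of IgM and IgA polymers, lay at -4.0, -3.87 and -3.92 on KO 48 h replicates 1, 2 and 3 and at 0.89 and -0.35 on the 2 Het 48 h arrays. For this gene, the KO 48 h arrays lay close together (SD 0.06) and below both Het arrays. Such a small SD was not particular to Jchain, with 0.05 for Myc on the same arrays. Prdm1, another plasma-cell gene, was spread more widely on the KO 48 h arrays (SD 1.29). Whether the titles or the channel fields give the true genotype was not tested. KO 48 h replicates 2 and 3 had a correlation of 0.89 over the 331 genes, against 0.72 and 0.74 for replicate 1 with them and 0.50 to 0.69 among the KO 0 h arrays. The titles carry numbers of the authors' database that fall into 3 ranges. KO 0 h replicate 1 is in the lowest range, KO 0 h replicate 2 and KO 48 h replicate 1 are in the middle range, and the other 3 of these arrays are in the highest. Both arrays of the middle range had the widest spread, with 6.62% and 8.2% of values beyond 6 log2 units, against at most 0.602% on the other 4.

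The first question was which genes differed between KO cells at 48 h of LPS and resting KO cells. The leading fall was that of Tsc22d3, a leucine-zipper protein (GILZ) of resting and glucocorticoid-treated lymphocytes, which was 7.36-fold lower at 48 h. The rises were those of Pkm (7.14-fold) and Ldha (3.12-fold), which encode the glycolytic enzymes pyruvate kinase and lactate dehydrogenase A, of S100a6 (6.15-fold), a calcium-binding protein of proliferating cells, and of Mapkapk2 (3.52-fold), a kinase downstream of p38. In all, 5 of 331 genes passed an adjusted p of 0.05 in limma, which is 1.51% of the genes tested, 4 of them higher at 48 h (1.21%) and 1 lower (0.302%). At an unadjusted p under 0.05 there were 27 genes (8.16%). The 3 arrays of 48 h did not overlap the 3 of 0 h for 74 genes (22.4%), 52 of them higher (15.7%) and 22 lower (6.65%). After centring on the median of the named features alone, 10 genes were higher and 5 lower, and with quantile normalization 2 were higher and 3 lower.

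**Figure D1:**
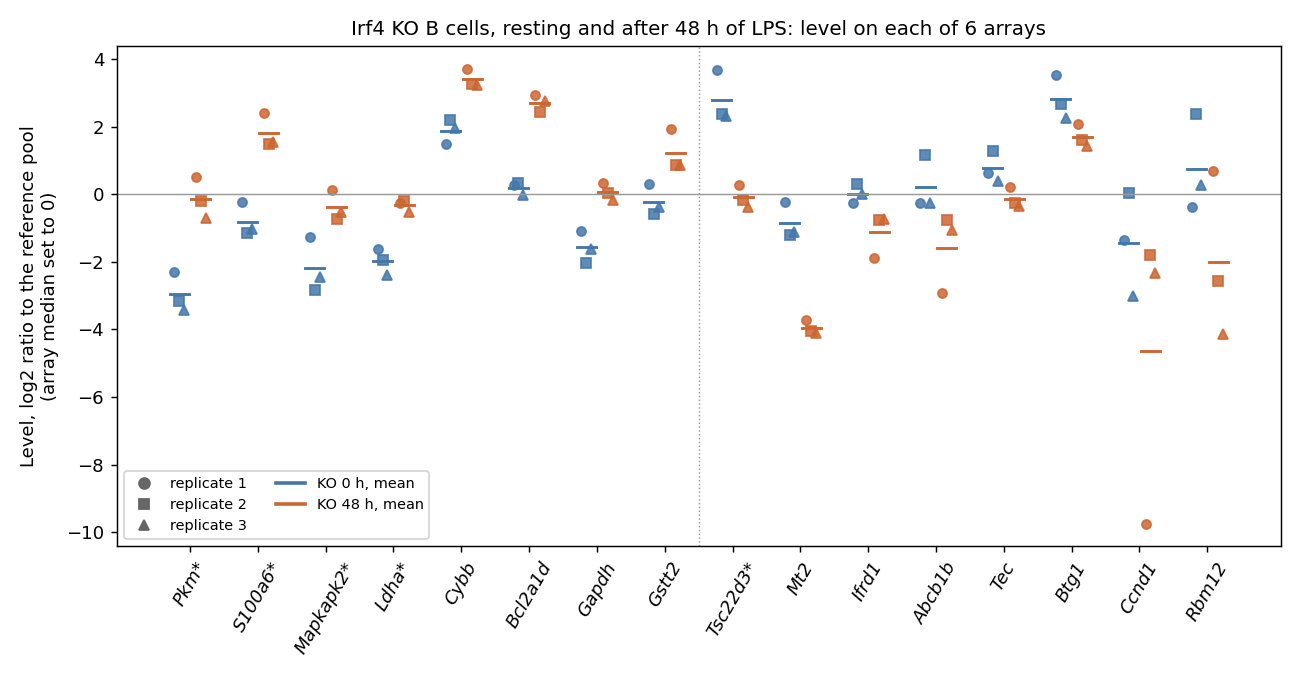
Level of 16 genes (log2 ratio to the reference pool, array median set to 0) on the 3 KO 0 h arrays (blue) and the 3 KO 48 h arrays (orange), with the mean of each group as a bar and the replicate shown by the symbol; an asterisk marks an adjusted p under 0.05. The left side holds the 8 genes higher at 48 h and the right side the 8 genes lower at 48 h with the smallest p; for Ccnd1 a single array at -9.74 carries the low mean at 48 h.

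Tsc22d3 lay at 3.68, 2.38 and 2.30 on the KO 0 h arrays and at 0.28, -0.16 and -0.39 on the KO 48 h arrays. All resting arrays were thus well above the pool, all LPS arrays were near it, and the groups did not overlap. The mean fell from 2.79 ± 0.77 (SD, n = 3) to -0.09 ± 0.34 (SD, n = 3), a difference of -2.88 ± 0.48 (SE; adjusted p = 0.00365 in limma). Its 2 features differed in the same direction, by -2.59 and -3.17. Within the middle range of arrays the difference was -2.10, and within the highest range -2.58.

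S100a6 lay at -0.23, -1.16 and -1.04 at rest and at 2.41, 1.5 and 1.53 at 48 h. It was below the pool on every resting array and above it on every LPS array. The difference was 2.62 ± 0.51 (SE; adjusted p = 0.0126), with 3.57 in the middle range and 2.55 in the highest. Its 2 features gave 3.25 and 1.99.

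Mapkapk2, measured by 1 feature, lay at -1.28, -2.85 and -2.44 at rest and at 0.12, -0.72 and -0.52 at 48 h. The highest resting array stayed below the lowest LPS array. The difference was 1.82 ± 0.44 (SE; adjusted p = 0.0409), with 2.97 in the middle range and 1.82 in the highest.

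Named genes of glycolysis included Pkm, Ldha, Gapdh and the muscle enolase Eno3. Eno1, another enolase, was not among the 331 genes, so Eno3 does not stand for the enolase step as a whole. Pkm, whose product makes pyruvate, lay at -2.31, -3.17 and -3.42 at rest and at 0.51, -0.19 and -0.71 at 48 h. The means were -2.97 ± 0.58 and -0.13 ± 0.61 (SD, n = 3 each), and the difference was 2.84 ± 0.66 (SE; adjusted p = 0.0342). The resting level was far below that of the pool of cell lines, and the 48 h level was close to it. Ldha, whose product turns pyruvate into lactate, lay at -1.61, -1.93 and -2.38 at rest and at -0.27, -0.20 and -0.52 at 48 h. Its difference was 1.64 ± 0.38 (SE; adjusted p = 0.0342). For both genes the groups did not overlap, and the differences within the middle and the highest range were 3.68 and 2.97 for Pkm and 1.66 and 2.01 for Ldha. Gapdh, a middle step of the same pathway, lay at -1.08, -2.02 and -1.63 at rest and at 0.34, 0.02 and -0.17 at 48 h. Its difference was as large as that of Ldha, 1.64 ± 0.44 (SE), and did not pass (adjusted p = 0.0657), although its groups did not overlap either. Eno3 lay at 0.01, -1.24 and -1.13 at rest and at -0.74, -1.01 and -1.24 at 48 h, with overlap and a difference of -0.21 (adjusted p = 0.992).

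The 250 bases before the start of Ldha and of Pkm are shown because these were the growth genes that passed. The letters searched were CACGTG, the E box bound by MYC and other basic helix-loop-helix factors, which reads the same on both strands; matches are in capitals. Sequences are from RefSeq (GRCm38.p6), 5′ to 3′ on the plus strand, from chr7:46845554-46845803 for Ldha and chr9:59656326-59656575 for Pkm, each the first of 2 listed starts.
Ldha: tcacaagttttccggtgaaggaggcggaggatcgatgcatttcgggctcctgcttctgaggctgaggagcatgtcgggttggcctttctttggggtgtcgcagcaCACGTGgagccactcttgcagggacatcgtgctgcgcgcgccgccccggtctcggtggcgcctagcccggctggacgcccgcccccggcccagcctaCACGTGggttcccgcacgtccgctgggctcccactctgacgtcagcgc
Pkm: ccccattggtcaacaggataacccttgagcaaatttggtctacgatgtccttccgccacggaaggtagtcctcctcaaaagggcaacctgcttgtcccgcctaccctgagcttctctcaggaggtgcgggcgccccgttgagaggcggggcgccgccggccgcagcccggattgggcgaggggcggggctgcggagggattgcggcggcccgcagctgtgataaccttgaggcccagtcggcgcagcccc
The Ldha window shown held 2 matches, which began 145 and 48 bases before the start. Such letters occurred in 6.02% of the 32851 RefSeq windows of this length and in 11% of the 345 windows of the 266 array genes that were listed. They were not found in the other Ldha window, in either Pkm window, in the window of Gapdh or in that of S100a6. A match is a description of the letters and was not tested for binding.

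The list of MYC targets, nucleotide synthesis and ribosome growth had 15 measured members, of which Pkm and Ldha passed, where 1.21% of all genes passed as higher. Differences were above 0 for 13 of them, with a median of 0.61, while 56.5% of all genes were above 0, with a median of 0.08. Among members that did not pass, Idh1, a cytosolic dehydrogenase that supplies NADPH, differed by 1.14, Ahcy, an enzyme of the methyl cycle, by 0.89, and Mthfd2, a mitochondrial folate enzyme, by 0.71. The nucleolar proteins Npm1 and Ncl differed by 0.63 and 0.09. Myc itself had the lowest value of the list. It lay at 1.09, 0.12 and 0.16 at rest and at -0.63, -0.73 and -0.72 at 48 h, a difference of -1.15 (adjusted p = 0.802). The groups did not overlap, with all LPS arrays below all resting arrays, and the difference did not pass the test. The asparaginyl-tRNA synthetase Nars and the CTP synthase Ctps differed by 0.12 and 0.08.

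DNA replication and cell-cycle genes had 15 measured members, none of which passed in this comparison. Of these 11 were above 0, with a median difference of 0.27. Hmgb2, a chromatin protein of dividing cells, lay at -0.25, -0.57 and -0.76 at rest and at 1.04, 0.62 and 0.90 at 48 h. Its groups did not overlap, and the difference was 1.38 (adjusted p = 0.54). The mitotic kinase Plk1 differed by 1.39, the proliferation marker Mki67 by 0.69, the replication clamp Pcna by 0.59, thymidine kinase Tk1 by 0.49 and the replicative helicase subunit Mcm2 by 0.27, none past the threshold. The histone deacetylase Hdac1 (0.74), the alkaline phosphatase Alpl (0.23) and the glycogen branching enzyme Gbe1 (-0.41) also did not pass. Ccnd1, the cyclin D1 gene, had a difference of -3.19 (SE 1.45; adjusted p = 0.546), which came from a value of -9.74 on KO 48 h replicate 1. The other 48 h arrays, at -1.80 and -2.34, lay within the range of the resting arrays, -3.0 to 0.04.

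Among genes of quiescence, Tsc22d3 was the member that passed, of 8 measured. The others of the list were below 0 with 1 exception, so that 7 of 8 were below 0, with a median of -0.55. These 7 include Rheb (-0.18), which is also a member of the growth list. Of all genes 0.302% passed as lower and 56.5% were above 0, with a median of 0.08. Btg1, an antiproliferative gene of resting lymphocytes, lay at 3.53, 2.67 and 2.26 at rest and at 2.08, 1.6 and 1.42 at 48 h. Every LPS array was below every resting array, and the difference of -1.12 did not pass (adjusted p = 0.273). Trp53inp1, a p53-induced stress gene, differed by -0.97, the transcription factor Ets1 by -0.75, the inhibitor of DNA binding Id3 by -0.35 and the scaffold protein Akap12 by -0.35. Foxp1, the exception, had a difference of 2.78, which rested on a value of -5.19 on KO 0 h replicate 2, while the other resting arrays were at 2.26 and 1.69 and the LPS arrays at 3.03, 2.01 and 2.07.

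FOXO factors are known for the control of quiescence genes, and the windows of Tsc22d3 and Btg1 were searched for their site. Those of Ets1 and Trp53inp1, whose groups also did not overlap, were not searched. The window of Btg1, a gene that did not pass, was the one with a match and is shown. It is from RefSeq (GRCm38.p6), chr10:96616751-96617000, plus strand, with matches to TGTTTAC or to its reverse complement GTAAACA, the core of the FOXO site, in capitals.
Btg1: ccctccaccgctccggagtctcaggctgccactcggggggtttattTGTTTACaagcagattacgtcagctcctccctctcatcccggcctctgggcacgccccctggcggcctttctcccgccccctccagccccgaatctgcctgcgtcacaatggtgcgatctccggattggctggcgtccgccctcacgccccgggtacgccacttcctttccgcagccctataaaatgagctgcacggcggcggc
It held 1 match, 204 bases before the start, against 3.17% of all windows with a match. The letters were not found in the 3 windows of Tsc22d3.

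Survival genes had 9 measured members, 7 of them above 0, with a median of 0.65 and none past the threshold. Bcl2a1d, an antiapoptotic BCL2 relative that activated lymphocytes induce, lay at 0.26, 0.32 and -0.02 at rest and at 2.93, 2.42 and 2.76 at 48 h. The groups were tight and far apart, with means of 0.19 ± 0.18 and 2.71 ± 0.26 (SD, n = 3 each). The difference of 2.52 ± 0.67 (SE) did not pass (adjusted p = 0.0657). The spread in this test comes from all mouse arrays. Among them was a Het 0 h array at -3.88, whose part in the result was not tested. When only these 6 arrays were fitted, Bcl2a1d, Mt2 and Thbs1 passed in addition and Mapkapk2 no longer did. Near-identical copies of Bcl2a1 exist in the mouse, and the array may not separate them. Bcl2l11, the proapoptotic BIM, lay at -0.70, 0.90 and -0.33 at rest and at 1.46, 1.5 and 0.82 at 48 h. The groups overlapped by 1 resting array, and the difference of 1.30 did not pass (adjusted p = 0.122). Pim1, a kinase that favours survival, differed by 1.53 (adjusted p = 0.252), and Mcl1, a short-lived antiapoptotic protein, by -0.53.

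Mt2, a metallothionein that binds zinc, had the largest negative difference among genes whose groups did not overlap. It lay at -0.22, -1.22 and -1.11 at rest and at -3.72, -4.04 and -4.09 at 48 h. The resting arrays were near or just below the pool and the LPS arrays far below it. The difference of -3.10 ± 0.91 (SE), or 8.58-fold lower, did not pass (adjusted p = 0.0945). It passed in 9 of 24 other ways of processing. Of its 2 features, tested on their own among the 559 named features, 1 passed (-2.99, adjusted p = 0.000772) and 1 did not (-3.21, adjusted p = 0.741).

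The other genes with the smallest p in each direction did not pass. Cybb, a subunit of the phagocyte oxidase that B cells also express, lay at 1.48, 2.18 and 1.97 at rest and at 3.71, 3.27 and 3.22 at 48 h, a difference of 1.52 (adjusted p = 0.0652). Gstt2, a glutathione transferase, lay at 0.30, -0.60 and -0.38 at rest and at 1.93, 0.86 and 0.86 at 48 h, a difference of 1.44 (adjusted p = 0.0836). Neither gene had overlapping groups. Ifrd1, a coregulator of transcription, differed by -1.14 (adjusted p = 0.122), the drug transporter Abcb1b by -1.81 (adjusted p = 0.13) and the kinase Tec by -0.91 (adjusted p = 0.248), also with no overlap. Rbm12, an RNA-binding protein, differed by -2.75, with 48 h values from -4.13 to 0.69 that overlapped the resting values.

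Plasma-cell and antibody-secretion genes, the programme that IRF4 drives, had 11 measured members, 5 above 0 and 6 below, with a median of -0.32 and none past the threshold. Jchain lay at -2.66, -10.27 and -3.46 at rest, so that its 48 h values of -4.0 to -3.87 lay inside the resting range. The difference of 1.54 (adjusted p = 0.86) rested on the extreme value of KO 0 h replicate 2, and without the middle and lowest ranges it was -0.43. Prdm1, which encodes the plasma-cell regulator BLIMP1, lay at -0.90, -5.58 and -0.66 at rest and at -2.37, -0.01 and -0.28 at 48 h, with overlap. Xbp1, the regulator of the secretory programme, differed by -0.47, Mzb1, a chaperone of IgM assembly, by -0.34, the elongation factor Ell2 by -0.33, the lambda chain gene Iglv1 by -0.69 and the plasma-cell marker Sdc1 by -1.43. None of these 5 passed. The secretory pathway list had 14 members, 10 of them above 0, with a median of 0.08, close to that of all genes. The folding enzyme Pdia3 differed by 0.84, the signal recognition subunit Srp9 by 0.95 and the chaperone Dnajc3 by 0.02, none past the threshold.

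Mature B-cell genes had 7 measured members, 2 above 0 and 5 below, with a median of -0.35 and none past the threshold. Cd79b, the signalling chain of the B-cell receptor, lay at 2.85, 3.25 and 2.43 at rest and at 3.37, 2.50 and 2.56 at 48 h, a difference of -0.03. Bank1, a B-cell scaffold, differed by 0.66. Both lay well above the pool on all 6 arrays. H2-DMa and H2-DMb1, which load peptides onto class II molecules, differed by -0.62 and -0.45. Of the 8 genes of LPS and NF-kB signalling 6 were above 0, with a median of 0.22, and none passed. The growth factor Csf1 differed by 1.44 and the kinase Ikbke by 1.17, while the interferon regulatory factor Irf1, a relative of IRF4, differed by -0.60. Interferon-stimulated and antigen-processing genes (9 members, 5 above 0, median 0.14), cytokine genes (3 members, 2 above 0, Socs2 at -0.07) and class-switching and repair genes (3 members, all above 0, median 0.69) held none that passed.

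**Figure D2:**
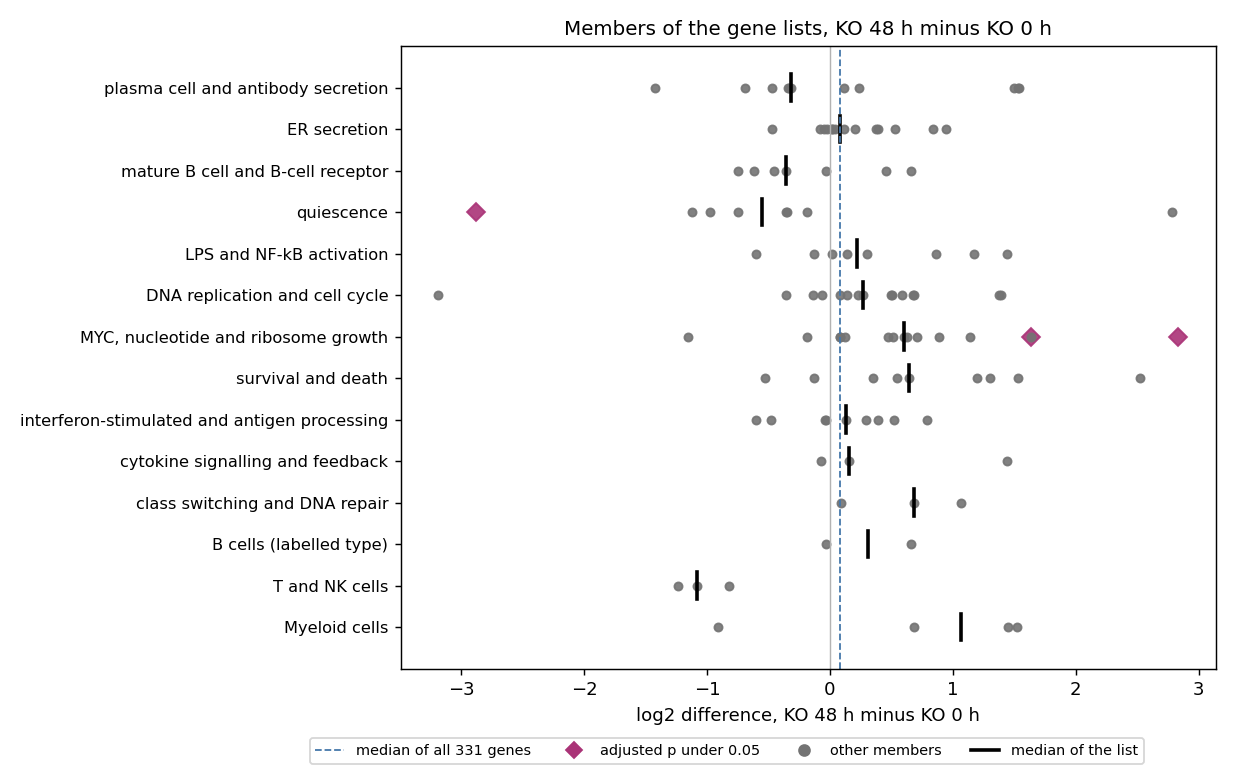
Difference of each list member (log2, KO 48 h minus KO 0 h), 1 row per list, with diamonds for the genes past an adjusted p of 0.05, dots for other members, a black bar for the median of the list and a dashed line for the median of all 331 genes. The growth list reaches farthest to the right with Pkm at 2.84, Tsc22d3 stands at -2.88 in the quiescence list, and the secretory list lies at the median of all genes.

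Other cell types were looked for by their markers. Of the T and NK list 3 of 32 genes were measured (Cd3g, Gzma and Tcra), and their mean per array was -2.05 to -0.73 at rest and -3.54 to -1.41 at 48 h. Of the myeloid list 4 of 32 were measured (Cybb, Ncf1, Slpi and Tyrobp), and their mean was -0.33 to 0.13 at rest and 0.32 to 0.88 at 48 h. The myeloid mean was thus higher on every LPS array, while none of the 4 passed and Tyrobp, an adaptor of myeloid and NK cells, differed by -0.91. Cybb, which B cells also express, differed by 1.52, Slpi by 1.45 and Ncf1 by 0.68. The part of other cells in the result was not tested, and the markers of red cells and platelets were not measured.

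The count of genes depended on single arrays. Without KO 0 h replicate 2, KO 0 h replicate 3 or KO 48 h replicate 1, 1 gene passed, and without KO 48 h replicate 2 or 3, 2 passed; Tsc22d3 was among them each time. Without the 2 arrays whose channel fields say Het (and KO 24 h replicate 3, which has the same conflict), a single KO 48 h array remained, whose spread was assumed to equal that of the other groups, and 0 genes passed in limma (15 at an unadjusted p under 0.05). The differences were then -2.95 for Tsc22d3, 2.77 for Pkm, 2.31 for S100a6, 1.77 for Ldha and 1.46 for Mapkapk2. Without the lowest range of arrays 24 genes passed, 20 higher and 4 lower, among them all 5 named above. Without that range and without the conflicting arrays 2 passed, Tsc22d3 and Pkm. Over 24 ways of processing, the sign of all 5 stayed the same; Tsc22d3 passed in 22 of them, S100a6 in 17, Pkm in 14, Ldha in 13 and Mapkapk2 in 12.

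**Figure D3:**
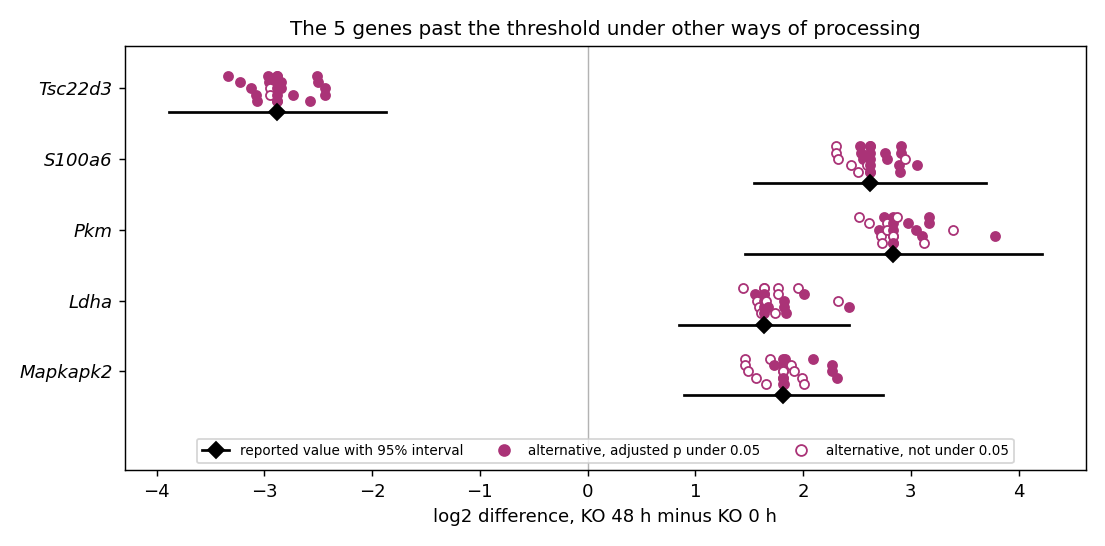
Difference (log2, KO 48 h minus KO 0 h) of the 5 genes that passed, with the reported value and its 95% confidence interval as a diamond and a line, and each of 24 alternatives as a circle, filled where the adjusted p stayed under 0.05. All circles of a gene lie on 1 side of 0, and Tsc22d3 has the fewest open circles.

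The other LPS times in KO cells show when these differences were present. They use the same KO 0 h arrays, so the comparisons with rest share their controls, and values are set side by side only. At 24 h against rest 5 genes passed (1.51% of those tested), and at 96 h 3 did (0.906%). Tsc22d3 differed from rest by -3.72 at 24 h (adjusted p = 0.000123), by -2.88 at 48 h and by -3.41 at 96 h (adjusted p = 0.000405). It was thus low at each LPS time, with 24 h arrays at -0.96, -0.93 and -0.92. Bcl2a1d differed by 3.01 at 24 h (adjusted p = 0.0249), 2.52 at 48 h and 1.82 at 96 h. Btg1 differed by -2.47 at 24 h (adjusted p = 0.00241), -1.12 at 48 h and -0.88 at 96 h. Mt2 differed by -4.70 at 24 h (adjusted p = 0.00725), -3.10 at 48 h and -2.74 at 96 h, and Trp53inp1 by -3.17 at 24 h (adjusted p = 0.0399), -0.97 at 48 h and -0.94 at 96 h. For Bcl2a1d, Btg1, Mt2 and Trp53inp1 the value at 24 h was the farthest from rest of the 3 times. With Tsc22d3 they are the 5 genes that passed at 24 h, a choice that favours values far from rest at that time. Between 24 and 48 h none of them passed in limma (adjusted p from 0.199 for Btg1 to 0.953 for Bcl2a1d). The count at 24 h was 2 without KO 24 h replicate 1 or KO 0 h replicate 1, 3 without KO 0 h replicate 2 or 3 and 9 without KO 24 h replicate 2. The count at 96 h was 1 without KO 0 h replicate 1 or 2 or KO 96 h replicate 2 or 3.

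Pkm, Ldha and S100a6 had their highest KO mean at 48 h, the time at which they were chosen. The means of Pkm at 0, 24, 48 and 96 h were -2.97, -1.78, -0.13 and -2.95. Those of Ldha were -1.97, -1.04, -0.33 and -2.51, and those of S100a6 were -0.81, 0.35, 1.81 and -0.96. Eno3 had no such course, with means of -0.78, -0.86, -1.0 and -1.89. At 96 h the 3 genes differed from rest by 0.01, -0.53 and -0.15, none past the threshold. From 24 to 48 h no gene passed in limma (0 of 331, with 28 at an unadjusted p under 0.05), and the smallest adjusted p was 0.122, shared by Gstt2 (1.64), Mapkapk2 (1.71), the sialyltransferase St8sia4 (1.36) and the GTPase activator Rasa3 (1.55).

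From 48 to 96 h 17 genes fell (5.14% of those tested) and none rose. The median of all genes moved by -0.64 between these times, and after centring on the named features alone 15 genes were lower and 5 higher. Pkm fell by 2.82 (adjusted p = 0.0235), S100a6 by 2.77 (adjusted p = 0.00671), Ldha by 2.17 (adjusted p = 0.00587), Gapdh by 2.01 (adjusted p = 0.0235) and Mapkapk2 by 1.57 (adjusted p = 0.044). These 5 genes are among those named for high values on the same 48 h arrays, so their values here are a description and no independent support of a return. Eno3 differed by -0.90 (adjusted p = 0.226). Of the growth list 6 of 15 members fell, with a list median of -1.44, and of the replication list 4 of 15 (Pcna, Mcm2, Hmgb2 and Ccne1), with a median of -1.76. The median of the T and NK list over these times was 1.90, with 3 of 3 genes above 0 and none past the threshold, and its mean per array was -1.24 to 0.07 at 96 h, above all 48 h arrays. The mean of the myeloid list was 1.12 to 1.65 at 96 h, also above all 48 h arrays, with 2 of 4 genes above 0 and none past the threshold. The part of other cells in these differences was not tested. Slpi, a secreted protease inhibitor on the myeloid list, differed by 2.79 and did not pass (adjusted p = 0.0866); against rest it was higher at 96 h by 4.24 (adjusted p = 0.0347). All 96 h arrays belong to the highest range. Leaving out 1 KO 48 h or KO 96 h array at a time left 1 to 4 genes: 1 without KO 48 h replicate 1 or KO 96 h replicate 2, 2 without KO 48 h replicate 2 or KO 96 h replicate 3, and 4 without KO 48 h replicate 3 or KO 96 h replicate 1. Without the 2 conflicting arrays 0 passed in limma, and without the lowest range 135 did.

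**Figure D4:**
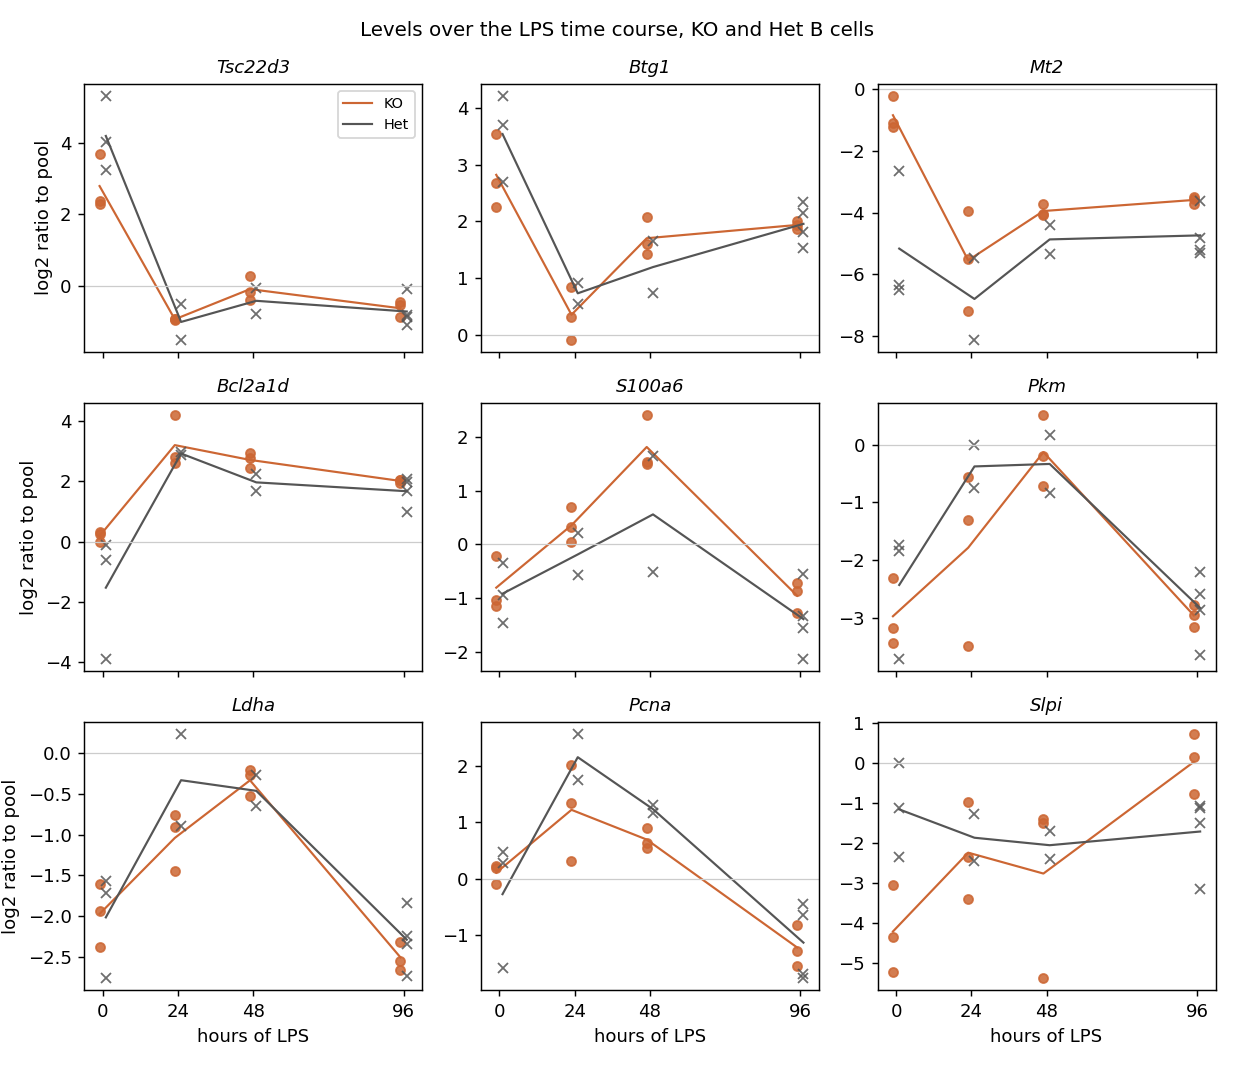
Level of 9 genes (log2 ratio to the reference pool, each panel with its own scale) against hours of LPS in KO cells (orange circles) and Het cells (grey crosses), 1 point per array and a line through the group means. Tsc22d3 is low from 24 h on in both genotypes, while Pkm, Ldha and S100a6 peak at 48 h in KO cells and differ from their resting means by 0.01, -0.53 and -0.15 at 96 h.

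Het cells give the response of cells with 1 Irf4 allele over the same time. Between Het 48 h (2 arrays) and Het 0 h (3 arrays) 28 genes passed (8.46%), 20 higher (6.04%) and 8 lower (2.42%). After centring on the named features alone 39 were higher and 27 lower. On Het 0 h replicates 1 and 2, 12.2% and 14.6% of values lay beyond 6 log2 units, against 1.6% on replicate 3. The counts in KO and Het cells are therefore no measure of which response was stronger. Tsc22d3, Ldha and Mapkapk2 passed in both genotypes, with Het differences of -4.60, 1.55 and 2.37. Pkm and S100a6 differed by 2.09 and 1.48 in Het cells and did not pass there (adjusted p = 0.087 and 0.119). The difference between the responses of the genotypes was tested by an interaction contrast, and 0 of 331 genes passed in limma (28 at an unadjusted p under 0.05, smallest adjusted p = 0.273). For the 5 genes it was 1.73 for Tsc22d3, 1.14 for S100a6, 0.74 for Pkm, 0.09 for Ldha and -0.55 for Mapkapk2, with adjusted p from 0.531 to 0.956.

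The genes with the smallest p for this difference of responses were then compared. Nars differed by 0.12 in KO and by 6.29 in Het cells, and Ctps by 0.08 and 3.87; both differences of responses, -6.17 and -3.79, had an adjusted p of 0.273. The Het values came from low resting arrays: Nars lay at -8.14, -8.28 and -1.82 on Het 0 h replicates 1, 2 and 3, against -0.85 to -0.15 on the KO 0 h arrays. Het 0 h replicates 1 and 2 belong to the lowest range of arrays. Idh1 (-3.76), the adhesion molecule Alcam (-2.79) and Gbe1 (-2.59) also had the lower response in KO cells. The AP-1 subunit Jun (2.28), Ets1 (2.53), Bank1 (1.58), Irf1 (1.30) and E330020D12Rik (2.09) had the higher. None of these differences of responses passed in the interaction contrast in limma (adjusted p from 0.4475 to 0.4496). Jun lay at 0.94, 1.08 and 0.09 on the KO 0 h arrays and at 1.48, 0.55 and 0.99 on the KO 48 h arrays, with overlap, and differed by -1.98 in Het cells (adjusted p = 0.0312). Mt2 differed by 0.30 in Het cells, whose resting arrays were at -6.51, -6.34 and -2.65, all below the 3 resting KO arrays; the difference of responses was -3.40 (adjusted p = 0.503). Without Het 0 h replicate 3, 15 genes passed the test of the difference of responses; without either of the other Het 0 h arrays, 0 did. For the Het response itself 79 genes passed without Het 0 h replicate 3, 3 without Het 48 h replicate 1 and 13 without Het 48 h replicate 2.

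**Figure D5:**
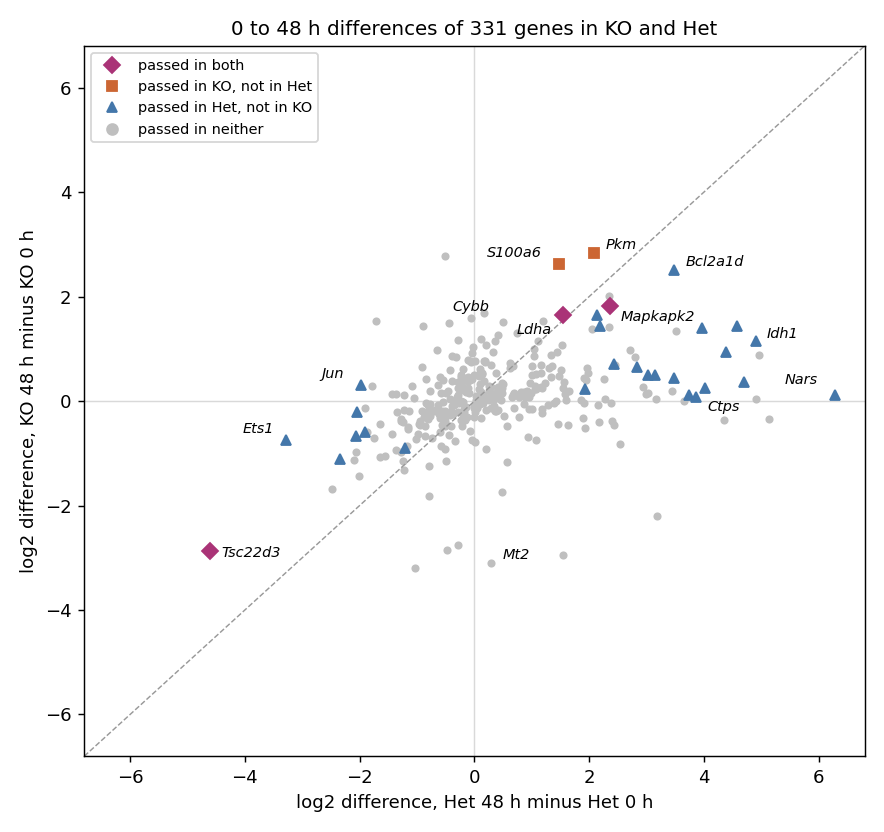
Difference from 0 to 48 h (log2) of each of 331 genes in KO cells (vertical axis) against that in Het cells (horizontal axis), with the dashed line of equal responses and symbols for the genes past an adjusted p of 0.05. Tsc22d3, Ldha and Mapkapk2 passed in both genotypes, and Nars, Ctps and Idh1 lie far to the right, with Het differences of 6.29, 3.87 and 4.90.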

How the data were processed

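Per the labels, RNA was isolated by the Trizol method, and dyes were added during reverse transcription. The authors deposited 1 log2 ratio per feature and array, for 12292 mouse features; how they were scanned, corrected for background and normalized is not given in the sources used here, and base 2 was taken from the range of values. Symbols came from the annotation of the platform, updated by gene ID for 328 of 331 genes. The median over all features of an array was subtracted from its values, and features with 1 symbol were averaged per gene (222 genes had more than 1). Group means for each combination of genotype and time were estimated over the 23 mouse arrays with limma 3.58.1 in R 4.3.3. Tests were 2-sided, with Benjamini-Hochberg adjustment over the 331 genes. The fit was also run on simulated data with the same spread on every array. The real arrays differ in spread, so that run does not show how well the fit suits them. The genes named were the 8 with the strongest evidence in each direction, members of the lists that passed, 23 genes named whatever their values, and the leading genes of the other comparisons. The comparison, genes and lists were chosen with earlier results of these data known. The number of arrays limits the precision; channel signals were not analysed here.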

Additional observations from a re-analysis of the deposited data

Results flagged for a closer look

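In KO cells, 17 genes differed between 2 LPS times, 96 and 48 h, in a limma test of that difference itself (adjusted p under 0.05). Changes on the log2 scale, 96 h minus 48 h, were -2.82 for Pkm, -2.77 for S100a6, -2.17 for Ldha, -2.01 for Gapdh and -1.57 for Mapkapk2. Replication and chromatin genes gave -2.24 for Hmgb2, -1.93 for Mcm2, -1.92 for Pcna, -1.41 for Ccne1 and -1.37 for H2ax, the histone variant of the DNA damage mark. Enzymes and nucleolar or RNA-binding proteins gave -1.97 for Ahcy, -1.76 for the nucleoside diphosphate kinase Nme1, -1.75 for the prolyl isomerase Ppia, -1.63 for Npm1 and -1.52 for Hnrnpd. The others were Akap12 (-1.76) and the necroptosis kinase Ripk3 (-1.49). All are lower at 96 h, beside a median of -0.64 over all genes. With the 2 conflicting KO 48 h arrays left out, 0 passed in limma.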

How the results depend on the processing

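For KO 48 h minus KO 0 h, 5 genes passed as reported. The count was 9 with only the KO arrays fitted, 15 with arrays centred over the named features, 8 without centring, 15 with arrays scaled to equal spread, 9 with values beyond 6 log2 units removed, 22 with array weights, 10 of the named features and 20 of all features tested on their own, 0 with the conflicting arrays left out or taken as Het, 24 without the lowest range, 11 with the range as a factor and 10 in the highest range alone. By alternatives chosen after seeing the data, it was 24 with quantile normalization over the named features and 2 without the lowest range and the conflicting arrays. Leaving out 1 replicate gave 1 to 5. With the replicate number as a block it was 2. After the group means were subtracted, same-numbered arrays of both times had correlations of -0.02, -0.17 and 0.24. Differently numbered arrays had -0.30 to 0.26. With 3 arrays per group these values cannot show whether the numbers pair the arrays. The count stayed at 5 with the median of features, with robust empirical Bayes and with quantile normalization, which shared 1 gene with the reported 5, and was 7 with only both groups fitted. No named gene that passed changed its sign.

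Centring over the named features gave 37 genes for KO 24 h minus 0 h, 16 for KO 96 h minus 0 h, 13 for KO 48 h minus 24 h, 66 for Het 48 h minus 0 h and 3 for the difference of responses. Without the lowest range these were 21, 43, 0, 79 and 1. Leaving out 1 replicate gave 2 to 9 for KO 24 h, 1 to 3 for KO 96 h, 0 for KO 48 h minus 24 h, 1 to 4 for KO 96 h minus 48 h, 3 to 79 for Het and 0 to 15 for the difference of responses. KO 96 h minus 48 h gave 0 without the conflicting arrays, 135 without the lowest range and 8 with the replicate block. Array weights gave 45 for Het and 12 for the difference of responses, and Het gave 12 with the conflicting arrays left out. The replicate block changed no other count by over 1.5 times. The causes were not tested. Leaving arrays out leaves fewer samples, and the counts both fell and rose when arrays were left out.

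Signal over background could not be assessed from ratios. Most of the 12292 features are unnamed here, and the 331 named genes were selected by the array's annotation, so counts describe this set. With 3 arrays per group, from different database ranges, a difference that missed the threshold is not shown to be absent.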

Other observations

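Outside the lists, several genes had 48 h arrays that did not overlap the resting arrays and an adjusted p above 0.05 in limma; they were chosen after their values were seen. Suv39h2, a histone H3 lysine methyltransferase, had means of 1.17 ± 0.43 at rest and 2.43 ± 0.36 at 48 h (SD, n = 3 each). Parp9, an interferon-inducible member of the PARP family, had means of 0.96 ± 0.32 and 2.03 ± 0.15. Arhgef6, an exchange factor for RAC, had means of 0.30 ± 0.15 and 1.45 ± 0.09. Sgk1, a kinase induced by serum and glucocorticoids, had means of 0.70 ± 0.61 and -2.25 ± 1.85.

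When each of the 12292 features was tested on its own, 20 passed (0.163%), 7 of them higher at 48 h. Of these 20 features 17 had no symbol and are not named here.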
